A study of Mus musculus with 36 samples.

Results

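The clustered protocadherins are neuronal cell surface proteins encoded by 3 neighbouring gene clusters, alpha, beta and gamma, on mouse chromosome 18. They were taken as the protein-coding rows of the expression table whose gene names follow the Pcdha, Pcdhb and Pcdhg numbering, which gave 24 of 31554 rows. Of these, 22 were beta genes, 1 was an alpha row (named Pcdha2) and 1 was a gamma row (named Pcdhga9). RNA was sequenced from the nucleus accumbens (NAc), the medial prefrontal cortex (PFC) and the periaqueductal grey (PAG) of adult male C57BL/6 mice. Tissue was taken 2.5 months after spared nerve injury (SNI), in which branches of the sciatic nerve are cut and another is left intact to model lasting neuropathic pain, or after sham surgery. The 6 groups were NAc SNI, NAc sham, PFC SNI, PFC sham, PAG SNI and PAG sham, with 6 libraries each. Libraries were made from pooled RNA per the labels, the mice behind a library are not named, and p-values therefore measure the spread between libraries, which may be technical.

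As background, single neurons use a limited choice of the alpha, beta and gamma promoters, picked through DNA methylation and looping by CTCF and cohesin, so that neighbouring neurons carry different sets of isoforms. The proteins bind copies of themselves on other membranes, and this recognition is known for keeping the branches of 1 neuron apart and for spacing axon terminals. Beta genes each stand alone as a short gene without the shared constant exons that the alpha variable exons, and likewise the gamma variable exons, are spliced to. In bulk tissue, fewer cells with a transcript and less of it per cell cannot be told apart.

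The table held the clusters at unequal resolution. On the mm10 build, GENCODE M21 places the alpha cluster at chr18:36930184-37187661, the beta cluster at chr18:37264938-37524479 and the gamma cluster at chr18:37661793-37841873, all on the plus strand. It lists 14 alpha, 22 beta and 21 gamma protein-coding genes. The 22 beta genes each had a row of 2340 to 7131 bases. The alpha row (ENSMUSG00000007440) was 24670 bases long, whereas the exons of a single alpha gene in M21 add up to between 5206 and 10034 bases. The gamma row (ENSMUSG00000023036) was 26094 bases long, whereas those of a single gamma gene add up to between 4664 and 7627 bases. M21 gives the alpha identifier the name Pcdha11 and the gamma identifier the name Pcdhgc4. Both rows are longer than any single gene of their cluster, so they are read below as the alpha row and the gamma row and not as 1 isoform. The M21 exons of all alpha genes together cover 40755 bases and those of all gamma genes 68392 bases. Each row is thus shorter than its whole cluster, and which isoforms it holds is not known. The C-type genes Pcdhac1, Pcdhac2, Pcdhgc3, Pcdhgc4 and Pcdhgc5, which share the constant exons, had no row under these names. They were therefore not analysed here as genes of their own. Levels in RPKM, reads per kilobase of gene and per M (mega) assigned reads, can be set side by side among the beta genes, but not between a beta gene and either merged row.

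Libraries held 27.6 to 64.9 M assigned reads. The beta genes are alike in sequence, and the share of a gene's 50-base windows that also occur in transcripts of other genes went from 0% in Pcdhb1 to 12% in Pcdhb12, so reads of the more alike genes are less certain. Tissue markers followed the labels in part. Slc17a7, a vesicular glutamate transporter of cortical excitatory neurons, was at 413.9 to 543 RPKM in PFC SNI, 438.8 to 499.3 RPKM in PFC sham, 1.97 to 3.66 RPKM in PAG SNI and 1.70 to 2.79 RPKM in PAG sham. It spread over 2.53 to 178.2 RPKM in NAc SNI and 1.59 to 138.9 RPKM in NAc sham, and 6 NAc libraries were above 50 RPKM. Some results that rest on NAc are also given without those 6, which leaves 4 NAc SNI and 2 NAc sham libraries. Drd2, a dopamine receptor, was higher in every NAc library (73.5 to 112.3 RPKM in SNI, 74.8 to 106.2 RPKM in sham) than in any other. Slc17a6, the transporter of subcortical excitatory neurons, and Tph2, of serotonin synthesis, were highest in PAG, at 96.7 to 122 and 52.7 to 152.9 RPKM in SNI and at 112.1 to 124.1 and 121.7 to 186.3 RPKM in sham.

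The beta genes, the alpha row and the gamma row had different regional patterns. The 22 beta genes together were highest in NAc, the alpha row was highest in PFC, and the gamma row was ordered NAc, PFC, PAG. The summed beta level was 64.3 ± 2.43 RPKM in NAc SNI and 65.1 ± 3.41 RPKM in NAc sham. It was 42.9 ± 2.09 RPKM in PFC SNI and 45.3 ± 2.68 RPKM in PFC sham, and 42.1 ± 1.29 RPKM in PAG SNI and 42.7 ± 0.806 RPKM in PAG sham (SD, n = 6 each). The lowest NAc library, at 60.8 RPKM, lay above the highest PFC library, at 49.6 RPKM, and the highest PAG library, at 43.6 RPKM. PFC and PAG overlapped in this sum.

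**Figure D1:**
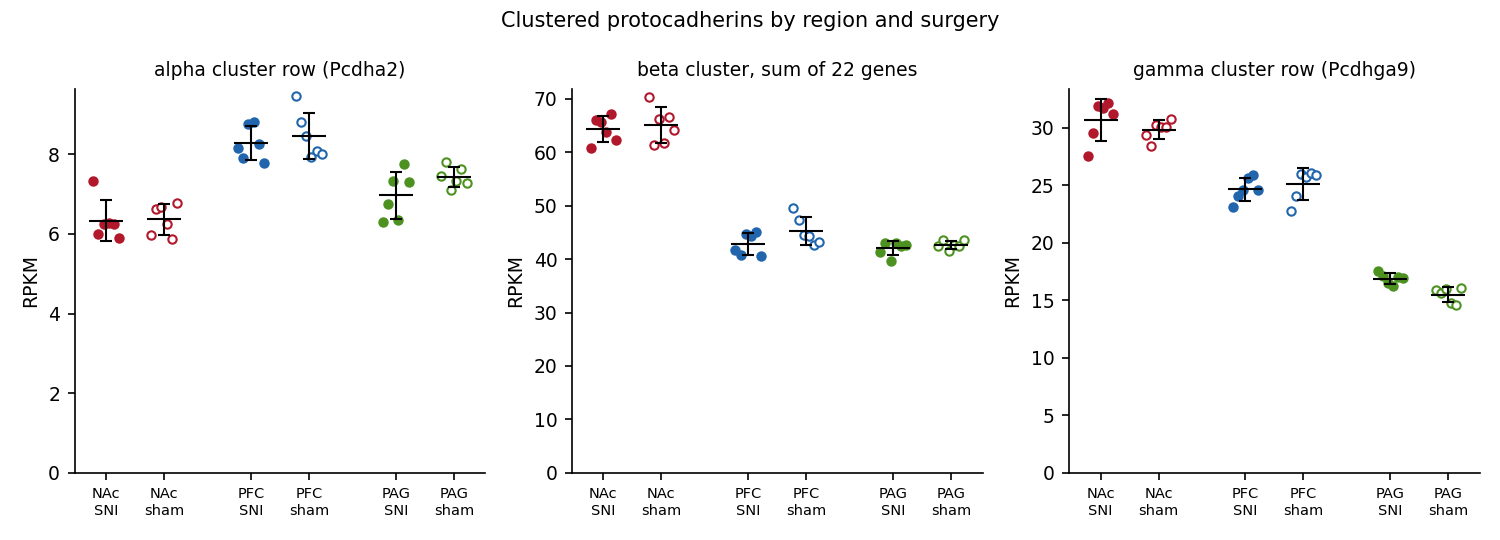
Each point is the RPKM of 1 library for the alpha row, the sum of the 22 beta genes and the gamma row, by region and surgery (filled points SNI, open points sham), with black bars at mean ± SD of 6 libraries. The alpha row is highest in PFC, the beta sum is higher in every NAc library (60.8 to 70.3 RPKM) than in PFC or PAG, and the gamma row falls in the order NAc, PFC, PAG.

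The alpha row was at 5.89, 6.26 and 7.32 RPKM (lowest, median and highest library) in NAc SNI, and at 5.87, 6.44 and 6.79 RPKM in NAc sham. In PFC it was at 7.77, 8.20 and 8.80 RPKM in SNI and at 7.92, 8.28 and 9.46 RPKM in sham, and in PAG at 6.30, 7.03 and 7.76 RPKM in SNI and at 7.11, 7.39 and 7.81 RPKM in sham. In sham mice the order was PFC, PAG, NAc, and none of the 3 groups overlapped. On the log2(RPKM + 0.5) scale used for all tests, SNI libraries differed by -0.36 for NAc over PFC, -0.13 for NAc over PAG and 0.24 for PFC over PAG. The sham libraries gave the same 3 signs, but in SNI libraries NAc and PAG overlapped. Under quantile scaling 0 members were lower in NAc SNI than in PAG SNI, beside 36.3% of all genes. The alpha row thus did not pass there. The difference of NAc sham from PFC sham was -0.38 (SE 0.05, adjusted p = 1.01e-07, limma), that of NAc sham from PAG sham was -0.21 (SE 0.05, adjusted p = 0.00057) and that of PFC sham from PAG sham was 0.17 (SE 0.05, adjusted p = 0.00323).

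The gamma row was at 27.5, 31.4 and 32.2 RPKM in NAc SNI and at 28.4, 30.1 and 30.8 RPKM in NAc sham. It was at 23.1, 24.6 and 25.9 RPKM in PFC SNI and at 22.7, 25.8 and 26.1 RPKM in PFC sham. In PAG it was at 16.2, 16.96 and 17.5 RPKM in SNI and at 14.6, 15.8 and 16.1 RPKM in sham. No library of 1 region overlapped with those of another. In SNI libraries the log2 difference was 0.31 for NAc over PFC, 0.84 for NAc over PAG and 0.53 for PFC over PAG. In sham libraries it was 0.25 for NAc over PFC (SE 0.04, adjusted p = 1.16e-06, limma), 0.92 for NAc over PAG (SE 0.04, adjusted p = 5.35e-21) and 0.68 for PFC over PAG (SE 0.04, adjusted p = 2.86e-17). The alpha row therefore ran against the beta sum and the gamma row in NAc over PFC, in both surgeries.

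Within the beta cluster the same few genes led in each region. Pcdhb17 (chr18:37484795-37489454), Pcdhb9 (chr18:37400855-37403909) and Pcdhb20 (chr18:37504264-37507822), the 3 of highest mean level, are like all beta members cadherin-type adhesion proteins. Pcdhb17 averaged 7.28 ± 0.417 RPKM in NAc SNI and 7.12 ± 0.530 RPKM in NAc sham, 5.13 ± 0.377 RPKM in PFC SNI and 5.64 ± 0.402 RPKM in PFC sham, and 3.98 ± 0.177 RPKM in PAG SNI and 4.11 ± 0.184 RPKM in PAG sham (SD, n = 6 each). Pcdhb9 averaged 6.54 ± 0.520 RPKM in NAc SNI and 6.54 ± 0.508 RPKM in NAc sham, with 4.49 ± 0.435 and 4.64 ± 0.486 RPKM in PFC SNI and PFC sham, and 3.73 ± 0.280 and 3.78 ± 0.288 RPKM in PAG SNI and PAG sham. Pcdhb20 averaged 5.20 ± 0.0898 RPKM in NAc SNI and 5.32 ± 0.323 RPKM in NAc sham, with 3.31 ± 0.209 and 3.53 ± 0.125 RPKM in PFC SNI and PFC sham, and 2.75 ± 0.107 and 2.74 ± 0.0847 RPKM in PAG SNI and PAG sham. For all 3 the regions were ordered NAc, PFC, PAG, and the sham groups of different regions did not overlap, apart from those of Pcdhb9 in PFC and PAG.

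These 3 genes made up 29.6% of the summed beta level in NAc SNI and 29.2% in NAc sham, and 30.1% in PFC SNI and 30.5% in PFC sham. In PAG, Pcdhb14 (chr18:37447656-37456350) took the third place and the leading 3 held 25.2% in SNI and 25.3% in sham. Pcdhb17 and Pcdhb9 were ranked 1 and 2 in each region and Pcdhb1 was ranked 22. Over the 22 genes, Spearman's rho between mean levels was 0.834 for NAc and PFC, 0.728 for NAc and PAG and 0.814 for PFC and PAG, a description over genes that share the same libraries. Against the order of the genes along the cluster the levels had a rho of 0.469 in NAc, 0.531 in PFC and 0.368 in PAG (n = 22 genes), so later genes tended to be higher, with Pcdhb9 a high gene in the middle and Pcdhb21 a low one near the end.

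**Figure D2:**
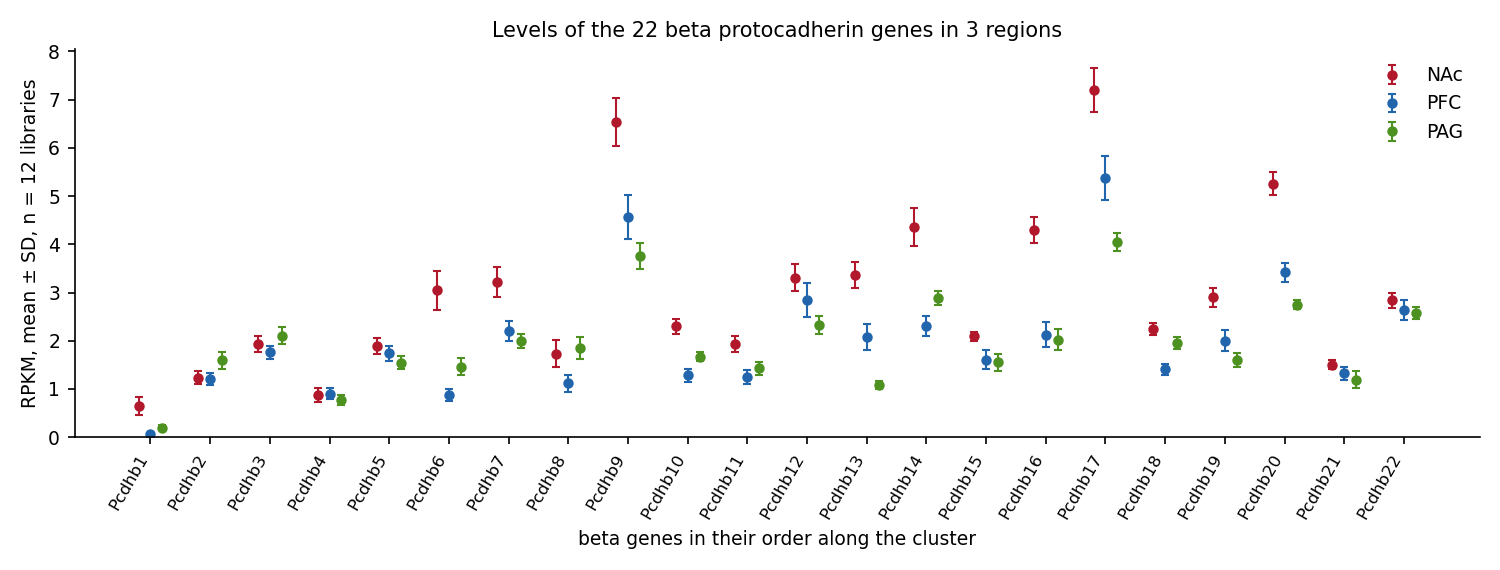
Mean RPKM ± SD of the 22 beta genes over the 12 libraries of each region, in their order along the cluster. Pcdhb9, Pcdhb17 and Pcdhb20 stand highest in NAc at 6.54, 7.20 and 5.26 RPKM, most genes are highest in NAc, and Pcdhb2, Pcdhb3 and Pcdhb8 are highest in PAG.

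Counted by mean level over the 12 libraries of a region, 18 of the 22 beta genes were highest in NAc, 3 in PAG (Pcdhb2, Pcdhb3 and Pcdhb8) and 1 in PFC (Pcdhb4). The lowest region was PAG for 13 genes and PFC for 9. The share of all genes highest or lowest in each region was not computed. In sham libraries 19 of the 21 beta genes tested were above 0 for NAc over PFC, beside 59.2% of all genes. For NAc over PAG 18 of 21 were above 0, beside 48% of all genes. In sham libraries the NAc over PFC test passed for 15 of 23 members tested in the higher direction, beside 36.7% of all 15639 genes tested, and for 1 member, the alpha row, in the lower direction, beside 22.3% of all genes. NAc over PAG passed for 18 members higher, beside 32.9% of all genes, and for 2 lower (the alpha row and Pcdhb2), beside 38.1%. PFC over PAG passed for 9 higher, beside 31%, and for 8 lower, beside 45.1%. The median log2 difference of the 21 beta genes tested was 0.45 for NAc over PFC, against 0.07 over all genes, and 0.40 for NAc over PAG, against -0.02 over all genes. For PFC over PAG it was 0.08, against -0.09 over all genes. In sham libraries the NAc contrasts held at 15 and 1 and at 18 and 2 members under median-of-ratios and quantile scaling. PFC over PAG gave 14 higher and 6 lower under the first and 14 and 4 under the second. There all genes gave 5930 and 5929 and then 5455 and 6456. Over all genes, median-of-ratios scaling gave 4457 higher and 4314 lower for NAc sham over PFC sham, against 5742 and 3488 as deposited. In SNI libraries NAc over PFC went from 19 higher and 1 lower to 16 and 1 under each scaling. All genes there went from 5036 and 3663 to 4186 and 4318 and to 4462 and 3983. NAc SNI over PAG SNI went from 18 and 3 members to 19 and 1 and to 19 and 0. All genes there went from 4478 and 6343 to 5231 and 5588 and to 5275 and 5671. Pcdhb1 did not reach the mean of 0.5 RPKM that the test required and is not among the 23.

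With a fold of at least 2 added on the log2 scale used for all tests, few members passed. The constant added to RPKM on that scale shrinks the fold of genes at a few RPKM. Some plain ratios of group means above 2 were therefore not counted. Pcdhb16 had ratios of 2.08 for NAc over PFC and 2.21 for NAc over PAG in SNI libraries. In sham libraries its NAc over PAG ratio was 2.04 and its NAc over PFC ratio was 1.97. For Pcdhb6 the NAc over PAG ratio was 2.045 in SNI and 2.12 in sham libraries. NAc SNI over PFC SNI left 1 member higher, Pcdhb6, and 0 lower, beside 3.29% and 3.72% of all genes. NAc SNI over PAG SNI left 1 higher, Pcdhb13, and 0 lower, beside 5.84% and 7.07%. PFC SNI over PAG SNI left 0 in either direction, beside 5.9% and 7.28%, where 18 members (78.3%) and 72.7% of all genes had an unadjusted p under 0.05 (limma). The sham libraries, which share none with the SNI libraries, gave the same counts and the same genes. They left Pcdhb6 higher and 0 lower for NAc over PFC, beside 3.38% and 3.47%, and Pcdhb13 higher and 0 lower for NAc over PAG, beside 6.59% and 6.42%. PFC sham over PAG sham left 0 in either direction, beside 7.74% and 7.35%, where 17 members (73.9%) and 77.4% of all genes had an unadjusted p under 0.05.

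Pcdhb6 (ENSMUSG00000051678, chr18:37333921-37337674) was at 2.43, 3.00 and 3.59 RPKM in NAc SNI and at 2.37, 3.13 and 3.68 RPKM in NAc sham. In PFC it was at 0.719, 0.872 and 1.04 RPKM in SNI and at 0.765, 0.893 and 1.06 RPKM in sham, and in PAG at 1.26, 1.42 and 1.78 RPKM in SNI and at 1.19, 1.45 and 1.72 RPKM in sham. Every NAc library lay above every PAG library, and every PAG library above every PFC library. The ratio of group means was 3.52 for NAc SNI over PFC SNI and 3.43 for NAc sham over PFC sham, and the log2 difference was 1.37 and 1.35 (SE 0.08 each, adjusted p = 9.08e-16 and 1.4e-15, limma). Of 22 beta genes it was ranked 9 in NAc and 21 in PFC. Without the 6 NAc libraries rich in Slc17a7, a setting chosen after seeing the data, the sham log2 difference was 1.5 (SE 0.11).

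Pcdhb13 (ENSMUSG00000047307, chr18:37442500-37446209) was at 2.95, 3.34 and 3.83 RPKM in NAc SNI and at 3.03, 3.39 and 3.61 RPKM in NAc sham. In PFC it was at 1.62, 2.02 and 2.41 RPKM in SNI and at 1.57, 2.18 and 2.34 RPKM in sham, and in PAG at 0.901, 1.07 and 1.18 RPKM in SNI and at 1.04, 1.10 and 1.18 RPKM in sham. The regions were ordered NAc, PFC, PAG with no overlap, unlike Pcdhb6, which was lowest in PFC. The log2 difference of NAc over PAG was 1.30 in SNI and 1.26 in sham libraries (SE 0.07 each, adjusted p = 1.05e-17 and 2.72e-17, limma), and for PFC over PAG it was 0.70 and 0.68. Its share of the summed beta level was 5.24% ± 0.478 in NAc SNI and 5.17% ± 0.276 in NAc sham, against 2.54% ± 0.269 in PAG SNI and 2.60% ± 0.0914 in PAG sham (SD, n = 6 each).

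Pcdhb1 (ENSMUSG00000051663, chr18:37264938-37267525), the first gene of the cluster and the lowest in each region, had the widest ratio between regions. It was at 0.339, 0.611 and 0.869 RPKM in NAc SNI and at 0.539, 0.581 and 1.05 RPKM in NAc sham, from 54 to 111 and from 66 to 100 reads a library. In PFC it was at 0.0224, 0.0686 and 0.0823 RPKM in SNI and at 0.0565, 0.0748 and 0.112 RPKM in sham, from 3 to 13 and from 7 to 13 reads. In PAG it was at 0.168, 0.194 and 0.296 RPKM in SNI and at 0.132, 0.171 and 0.295 RPKM in sham, from 12 to 28 and from 13 to 26 reads. Every NAc library lay above every PAG library, and every PAG library above every PFC library. The ratio of group means was 9.90 for NAc SNI over PFC SNI and 8.13 for NAc sham over PFC sham. With no filter on low levels, the log2 difference was 0.98 in both (SE 0.09, adjusted p = 3.18e-11 and 3.39e-11, limma), a scale on which the added 0.5 RPKM compresses so low a gene. Pcdhb4, the next lowest beta gene by its mean over all libraries, had means of 0.943 ± 0.0397 RPKM in NAc SNI, 0.798 ± 0.178 RPKM in NAc sham, 0.917 ± 0.118 RPKM in PFC SNI, 0.881 ± 0.110 RPKM in PFC sham, 0.764 ± 0.142 RPKM in PAG SNI and 0.787 ± 0.0702 RPKM in PAG sham (SD, n = 6 each). Every NAc SNI library lay above every PAG SNI library, a log2 difference of 0.20 (SE 0.08, adjusted p = 0.0238, limma), and the other 5 region contrasts of Pcdhb4 did not pass.

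**Figure D3:**
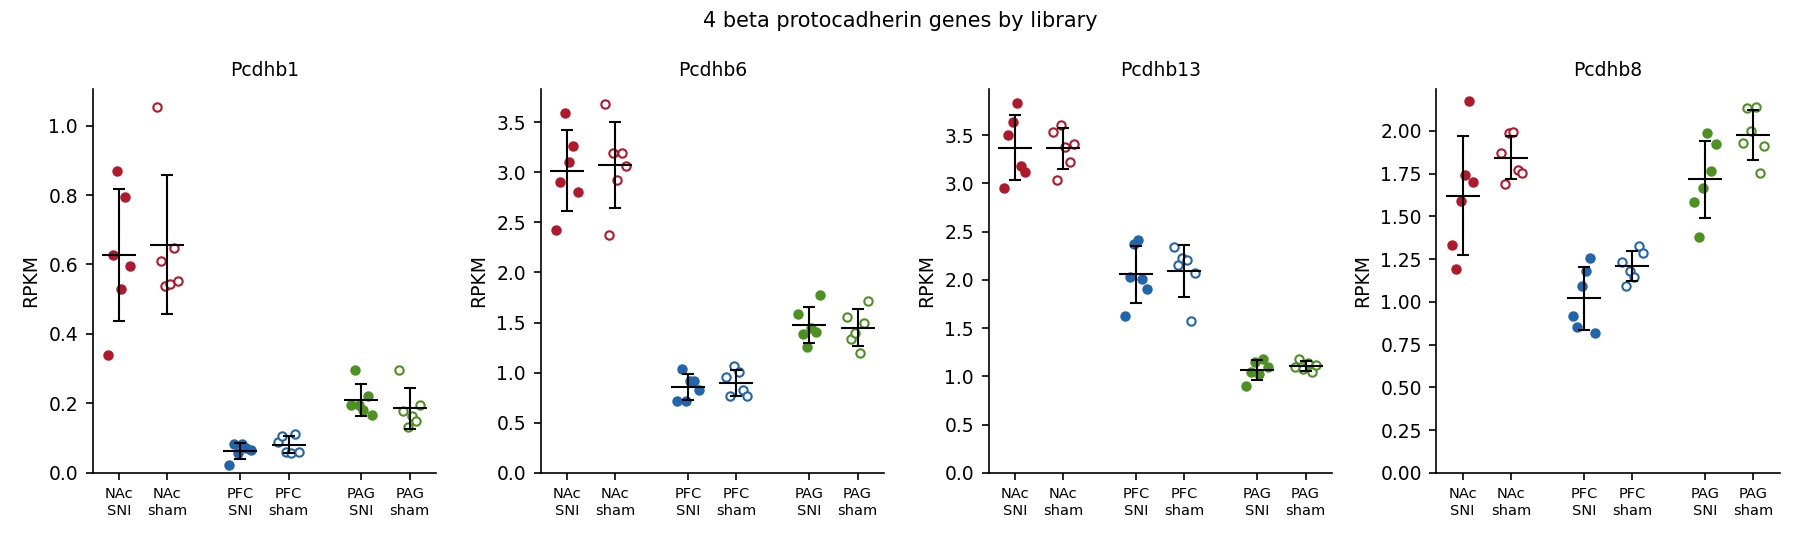
RPKM of Pcdhb1, Pcdhb6, Pcdhb13 and Pcdhb8 in each library by region and surgery (filled points SNI, open points sham), with black bars at mean ± SD of 6 libraries. Pcdhb1 and Pcdhb6 are highest in NAc and lowest in PFC, Pcdhb13 is lowest in PAG, and Pcdhb8 is lowest in PFC, with SNI means below sham means in each region.

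The regional differences recurred gene by gene in the 2 surgeries, which share no library. The NAc over PFC test passed for 20 members in SNI libraries and for 16 in sham libraries, and those 16 passed in both in the same direction. Of all genes tested, 55.6% passed in SNI and 59% in sham libraries. For NAc over PAG, 19 members passed in both and in the same direction, of 21 in SNI and 20 in sham libraries, beside 69.2% and 71% of all genes. For PFC over PAG, 16 passed in both, of 17 in each, beside 70.8% of all genes in SNI and 76.1% in sham libraries. In each surgery, 17 of the 23 members for PFC over PAG is close to the share of all genes. The shares of all genes are for each surgery alone, and the share passing in both surgeries was not computed. The ratio of group means over the 22 beta genes had a Spearman's rho between SNI and sham libraries of 0.966 for NAc over PFC, 0.982 for NAc over PAG and 0.941 for PFC over PAG. The NAc over PFC ratio in sham libraries had a rho of 0.048 with the order along the cluster, so no clear trend. The NAc excess was uneven, though. This sham ratio was 8.13 for Pcdhb1, and 0.995, 1.07, 0.906 and 1.04 for Pcdhb2 to Pcdhb5. It was 1.12 and 1.07 for Pcdhb21 and Pcdhb22. The beta genes that passed as higher in NAc sham than in PFC sham all lay within Pcdhb6 to Pcdhb20. In SNI libraries Pcdhb3, Pcdhb5, Pcdhb12 and Pcdhb21 passed as higher in NAc too, so the calls were not confined to that stretch. Pcdhb1, below the level filter, was not in this test.

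Cell type markers moved with region too. The summed level of 10 general neuron markers was 1093 to 1403 RPKM in NAc SNI and 1091 to 1311 RPKM in NAc sham, against 1513 to 1788 RPKM in PFC SNI, 1626 to 1883 RPKM in PFC sham, 1562 to 1669 RPKM in PAG SNI and 1576 to 1753 RPKM in PAG sham. This sum was thus lower in NAc, where the beta genes and the gamma row were higher. Single neuron markers went both ways, with 2 higher and 5 lower in NAc sham over PFC sham and 3 higher and 7 lower in NAc sham over PAG sham. The 7 medium spiny neuron markers measured, which all rose in NAc sham over both other sham regions, summed to 638.2 to 955.5 RPKM in NAc SNI and 610.9 to 901.9 RPKM in NAc sham, and to at most 69.97 RPKM elsewhere. The 10 oligodendrocyte markers summed to 824.9 to 984.8 RPKM in NAc SNI and 795 to 892 RPKM in NAc sham. They spread over 244.9 to 1192 RPKM in PFC SNI and 269.5 to 998.9 RPKM in PFC sham, and lay at 1351 to 1855 RPKM in PAG SNI and 1267 to 1456 RPKM in PAG sham. No marker of these 3 lists was at 0, and their part in the regional differences of the protocadherins was not tested.

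**Figure D4:**
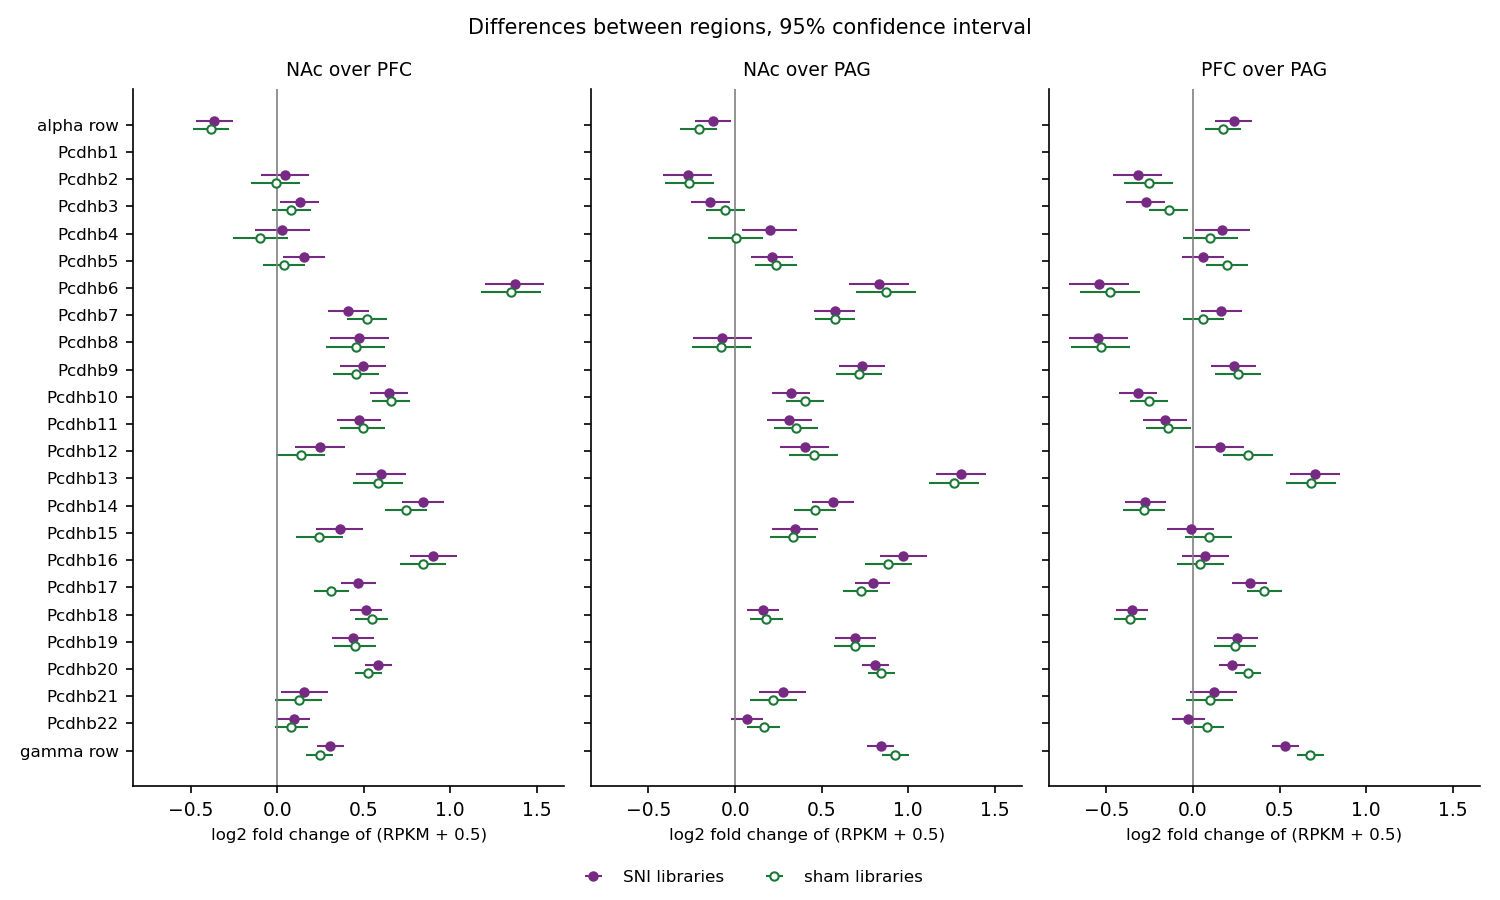
Log2 fold change of (RPKM + 0.5) between regions for the alpha row, the beta genes and the gamma row, with 95% confidence intervals, in SNI libraries (filled) and sham libraries (open). Pcdhb6 stands out for NAc over PFC at 1.37 and 1.35, Pcdhb13 for NAc over PAG at 1.30 and 1.26, and the alpha row lies below 0 in both. Pcdhb1, below the level filter, has no point.

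Injury was followed by few differences. In NAc, 0 of 24 members tested were higher and 0 lower in SNI than in sham libraries, beside 0% of all 15264 genes in either direction (limma). At an unadjusted p under 0.05 there were 0 members and 660 genes. The lowest adjusted p of a member was 0.78, and log2 differences of the 22 beta genes ran from -0.16 to 0.16 with a median of -0.02, the same as the -0.02 of all genes. Without the 6 NAc libraries rich in Slc17a7 the beta median was -0.06, with 17 of 22 genes below 0, against -0.02 over all genes. With all libraries 15 of 22 were below 0, where 39.3% of all genes were above 0, so all genes leaned the same way. That share was not computed without the 6 libraries. The widest 95% interval reached 0.28 to either side of its estimate (Pcdhb1).

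The 3 members of smallest p in NAc were Pcdhb18, Pcdhb7 and Pcdhb4. Pcdhb18 was at 2.09, 2.17 and 2.23 RPKM in NAc SNI and at 2.12, 2.36 and 2.44 RPKM in NAc sham, a log2 difference of -0.09 (SE 0.05). Pcdhb7 averaged 3.06 ± 0.211 RPKM in SNI and 3.38 ± 0.319 RPKM in sham, a difference of -0.12 (SE 0.06), and Pcdhb4 differed by 0.16 (SE 0.09). Groups overlapped for all 3, and the adjusted p was 0.78 for each. Between the 4 NAc SNI and 2 NAc sham libraries that are not rich in Slc17a7 the Pcdhb4 difference turned to -0.04 (SE 0.10).

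In PFC, 0 of 23 members were higher and 0 lower in SNI, beside 0% of all 15192 genes in either direction, with 1 member and 220 genes at an unadjusted p under 0.05 (limma). The beta genes leaned to lower values, with 19 of 21 tested below 0 and a median of -0.06, against 0.00 over all genes, of which 52% were above 0. With libraries weighted by quality, 13 of 21 were below 0 and the median was -0.02. The 3 of smallest p were Pcdhb8, Pcdhb17 and Pcdhb12. Pcdhb8 (chr18:37355121-37358604) was at 0.819, 1.01 and 1.26 RPKM in PFC SNI and at 1.09, 1.21 and 1.33 RPKM in PFC sham, a log2 difference of -0.18 (SE 0.08). Pcdhb17 averaged 5.13 RPKM in SNI and 5.64 RPKM in sham, a difference of -0.12 (SE 0.06), and Pcdhb12 averaged 2.68 ± 0.376 RPKM in SNI and 3.00 ± 0.278 RPKM in sham, a difference of -0.14 (SE 0.08). SNI and sham overlapped for each, and the adjusted p was 1 for each.

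In PAG, 1 of 23 members, the gamma row, was higher in SNI than in sham libraries and 0 were lower, beside 21.5% of all 15592 genes higher and 13.7% lower (limma). At an unadjusted p under 0.05 there were 3 members and 7170 genes. The share of members passing was thus below that of all genes. Every PAG SNI library, at 16.2 to 17.5 RPKM, lay above every PAG sham library, at 14.6 to 16.1 RPKM. The means were 16.9 ± 0.472 RPKM in SNI and 15.5 ± 0.636 RPKM in sham (SD, n = 6 each), a log2 difference of 0.12 (SE 0.03, 95% interval 0.05 to 0.19, adjusted p = 0.0125). Under quantile scaling the gamma row was the 1 member higher and 4 were lower, beside 2920 genes higher and 4020 lower, against 3360 and 2135 as deposited. Leaving out any 1 of the 12 libraries left the difference at 0.11 to 0.13, with an adjusted p of 0.00931 to 0.0315.

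Base composition separated the same PAG libraries. The slope of a library's log2 levels on gene GC content was 0.0359 to 0.217 per 10 percentage points of GC in PAG SNI and -0.214 to -0.0255 in PAG sham, with no overlap. The gene behind the gamma row's identifier has a GC content of 54.3%. The GC content of the merged row as counted is not known, and the trend correction below also used 54.3%. The 1561 genes within 1 percentage point of 54.3% had a median log2 difference of 0.11 in the same comparison. Of these genes, 38.8% passed the test in either direction. After a trend on GC content was removed from each library the gamma row's difference was 0.00 (SE 0.03, adjusted p = 0.98), and after the gene's own dependence on the GC slope, estimated in the other regions, was removed it was 0.01 (SE 0.03, adjusted p = 0.916). The call was lost in both. Since the slopes of PAG SNI and PAG sham libraries did not overlap, GC content and injury cannot be told apart in PAG. Either correction can also take away a difference that came with injury. Of all genes, 13.1% passed in either direction after the first correction and 0.141% after the second, against 35.2% as deposited.

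The beta genes, with a GC content of 39.1% to 48.98%, had PAG log2 differences of -0.16 to 0.08 with a median of -0.02. The 6534 genes in that GC range had a median of -0.09. GC content was that of a gene's longest M21 transcript and not of the row as counted. The M21 exons of Pcdhb14, the gene at 39.1%, add up to 8695 bases against a row of 3438. Those of Pcdhb22 add up to 6609 bases against a row of 3067. Of the 21 beta genes tested, 11 were below 0 as deposited and 3 with the trend on GC content removed, where their median was 0.05. As deposited, 45.9% of all genes were above 0. Pcdhb7 averaged 1.89 ± 0.102 RPKM in PAG SNI and 2.09 ± 0.0860 RPKM in PAG sham, a difference of -0.12 (SE 0.05, adjusted p = 0.0584). Pcdhb8 averaged 1.72 ± 0.225 RPKM in PAG SNI and 1.98 ± 0.147 RPKM in PAG sham, a difference of -0.16 (SE 0.07, adjusted p = 0.0843). Both pairs of groups overlapped, and both genes were picked here after their values were seen. The alpha row differed by -0.09 (SE 0.05, adjusted p = 0.171). With the trend on GC content removed, Pcdhb22 passed instead, at 0.17 (SE 0.04, adjusted p = 0.0158), whereas as deposited it averaged 2.66 ± 0.115 RPKM in PAG SNI and 2.49 ± 0.0868 RPKM in PAG sham, with a difference of 0.08 (SE 0.04, adjusted p = 0.141).

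**Figure D5:**
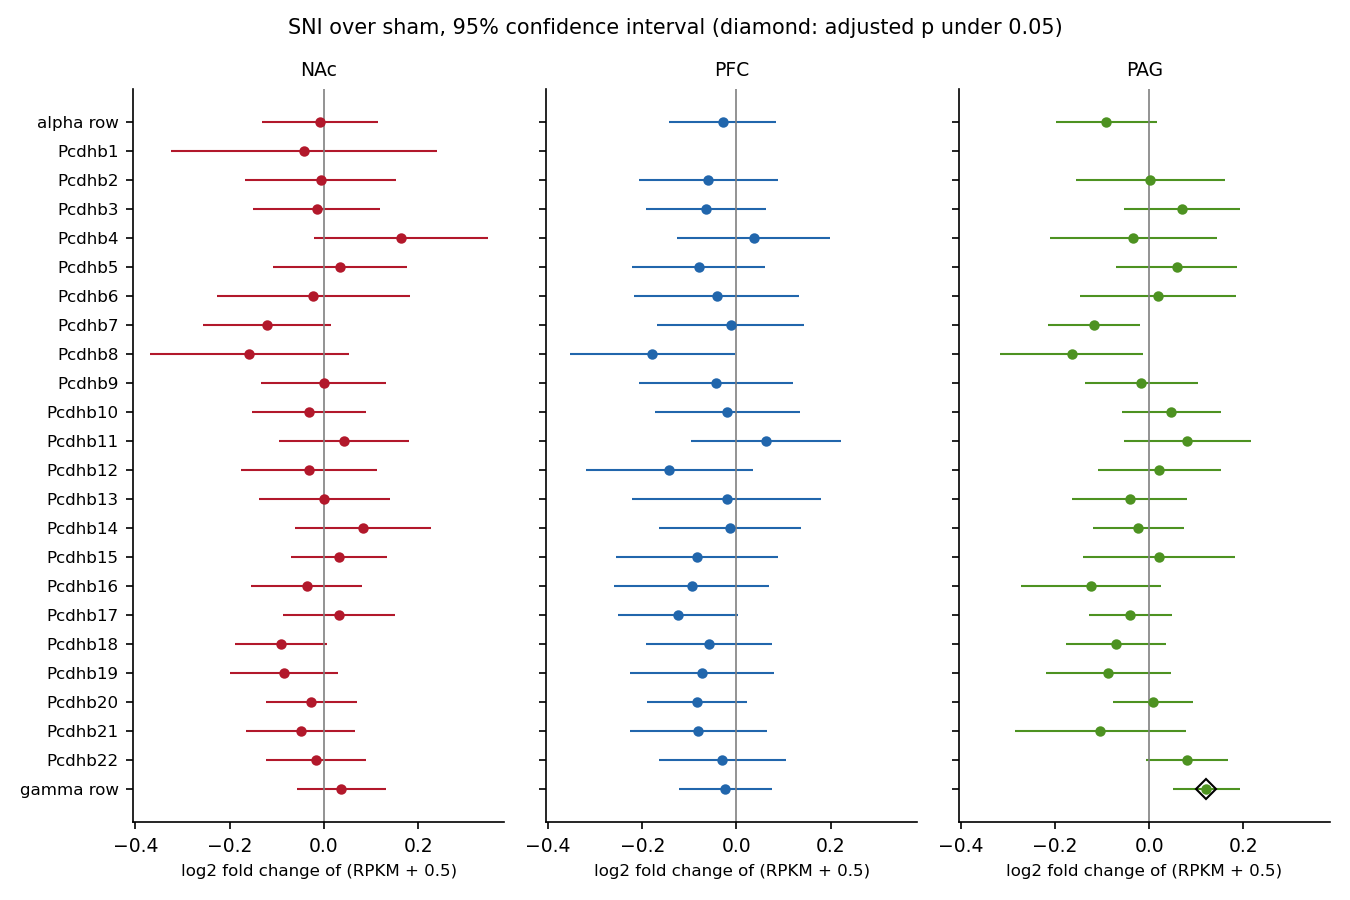
Log2 fold change of (RPKM + 0.5) for SNI over sham in NAc, PFC and PAG, with 95% confidence intervals, and a diamond where the adjusted p was under 0.05. The gamma row in PAG, at 0.12, carries the diamond, and Pcdhb8 lies at -0.16, -0.18 and -0.16 in the 3 regions without passing.

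No SNI effect of a member differed between regions by the test of the difference, which called 0 of 23 members for NAc against PFC, NAc against PAG and PFC against PAG, beside 0% of all genes each time (limma). At an unadjusted p under 0.05 these tests had 1, 0 and 1 members and 178, 1405 and 2779 of 15639 genes. The gamma row's effect in PFC less that in PAG was -0.14 (SE 0.05, adjusted p = 0.215). The widest 95% interval of these differences reached 0.24 to either side. With libraries weighted by quality the gamma row's difference passed, at -0.16 (SE 0.04, adjusted p = 0.00842), beside 23.7% of all genes.

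Genes that work with or beside the clusters were counted in 4 related lists. In PAG 18 of their 50 genes tested passed the SNI test (36%), beside 35.2% of all genes, so the lists together were at the share of all genes. In NAc and PFC 0 genes passed in any of these lists, and the tests of a difference between regions given above called 0% of all genes. In PAG, of 10 delta protocadherins, single-gene relatives outside the clusters, 2 rose and 2 fell, among them Pcdh1 at 0.41 (SE 0.07, adjusted p = 0.000594) and Pcdh11x at -0.24 (SE 0.05, adjusted p = 0.00151). Of 10 genes of CTCF, cohesin and its loaders, which loop cluster promoters to enhancers, 0 rose and 4 fell, among them Smc1a and Pds5b at -0.14 each (SE 0.03, adjusted p = 0.00571 and 0.00677). Of 10 genes of methylation and silencing at the clusters, 3 rose and 1 fell, with Wiz at 0.39 (SE 0.06, adjusted p = 4e-04) and the demethylating enzyme Tet3 at 0.23 (SE 0.06, adjusted p = 0.00686). The gene that fell was Tet1, of the same enzyme family, at -0.18 (SE 0.06, adjusted p = 0.0312), and Tet2 was at -0.16 (SE 0.06, adjusted p = 0.0738). Both were named after their values were seen. Of 20 processing and signalling partners, 1 rose and 5 fell, with the gamma-secretase subunit Psen2 at 0.32 (SE 0.06, adjusted p = 0.000744) and the actin regulator Nckap1 at -0.14 (SE 0.03, adjusted p = 0.00345). The median log2 differences of the 4 lists were -0.01, -0.11, -0.07 and -0.07, against -0.02 over all genes, and the PAG slopes on GC content given above stand beside these counts as well. In PAG 4 of 10 oligodendrocyte markers and 4 of 8 microglia markers also rose in SNI and 0 fell in either list, beside 21.5% and 13.7% of all genes. Of the other cell type lists, 3 of 8 midbrain neuron markers and 3 of 7 fibroblast and meningeal markers rose and 0 fell. Among 8 astrocyte markers 3 rose and 2 fell, and among 10 neuron markers 3 rose and 4 fell. Microglia markers summed to 102.8 to 126.6 RPKM in PAG SNI and 91.2 to 98.7 RPKM in PAG sham, with none at 0, and their part in the gamma row's difference was not tested.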

How the data were processed

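Polyadenylated RNA was sequenced in 36 libraries. The authors deposited RPKM values for 31554 genes with a length for each. The mm10 build, HTSeq and TopHat2 are named by the submitters' processing notes. The sources used here give no settings, versions or use of strand. Multiplied by length and depth, 100% of values gave whole reads within 0.001. The closest of 90 library pairs within groups differed by a chi-square of 3.67 per degree of freedom, so no pair was a copy. Groups were compared with limma 3.58.1 in R 4.3.3 (lmFit, eBayes with trend) on log2(RPKM + 0.5) over genes averaging 0.5 RPKM or more, two-sided, with Benjamini-Hochberg adjustment over all genes tested and a threshold of 0.05. SNI comparisons used the 12 libraries of a region. Region contrasts, with a fold of at least 2 where stated, and differences of SNI effects used 1 model of all 36. The fits were tested on simulated data. Gene models came from GENCODE M21, which held a GC content for 97.9% of genes. The members, lists and tests were chosen with earlier results of these data known. Genes were named by a rule. It took the C-type genes, which had no row under their names, and the 3 highest and 2 lowest of a cluster. It also took up to 4 members past an SNI test, or else the 3 of smallest p. Up to 3 past a region contrast, up to 2 per related list and 4 tissue markers were added. Alternatives were other pseudocounts, filters, scalings, array weights, voom on the recovered reads, GC corrections and left-out libraries. No pairing was used, since the labels do not name the mice and replicate numbers only run on over all 36 libraries.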

Additional observations from a re-analysis of the deposited data

Results flagged for a closer look

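In 144 sets of 6 libraries (24 members in 6 groups), 12 had a highest or lowest library far from the other 5, with a gap to the next library above Dixon's critical share of the range of the set. Chance flags about 1 set in 20, and no cause was tested. In NAc SNI the highest library stood apart for Pcdha2 at 7.32 RPKM (next 6.27), for Pcdhb11 at 2.38 RPKM (next 1.99) and for Pcdhb16 at 4.61 RPKM (next 4.23). In NAc sham it did so for Pcdhb1 at 1.05 RPKM (next 0.648) and for Pcdhb22 at 3.20 RPKM (next 2.87), and the lowest library did so for Pcdhb18 at 2.12 RPKM (next 2.34). In PFC sham the highest library stood apart for Pcdhb12 at 3.54 RPKM (next 2.96) and for Pcdhb21 at 1.74 RPKM (next 1.37), both in replicate 13, and the lowest for Pcdhb13 at 1.57 RPKM (next 2.07). In PAG SNI the lowest library stood apart for Pcdhb4 at 0.490 RPKM (next 0.732) and for Pcdhb20 at 2.55 RPKM (next 2.74). In PAG sham the highest stood apart for Pcdhb21 at 1.54 RPKM (next 1.22).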

How the results depend on the processing

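Of 297 recomputed counts of members called, 266 kept within 1.5 times the value reported. The 266 include counts of 0 for SNI in NAc and PFC. There few alternatives called any gene at all, so agreement at 0 says little. Of 362 recomputed values of named members 359 kept their sign and their side of the threshold. The exceptions follow, and their causes were not tested unless stated. The gamma row in PAG lost its call with the GC trend removed (0.00), where 1 other member, Pcdhb22, was higher in PAG SNI, and with the library GC axis removed (0.01), where 0 members were higher and 22 genes passed in all. With array weights 2 members were higher and 2 lower in PAG SNI, beside 22.9% and 19.1% of all genes. With the same weights the SNI effect of 1 member, the gamma row, differed between PFC and PAG, beside 23.7% of all genes. Members lower in PAG SNI numbered 1 with median-of-ratios scaling, beside 16.5% of all genes. With quantile scaling they numbered 4 (the alpha row, Pcdhb7, Pcdhb8 and Pcdhb17), beside 25.8% of all genes. With single libraries left out they numbered 0 to 1. There was 1 without PAG SNI replicate 33 and 1 without replicate 34, beside 3036 and 1735 genes lower. With no fold minimum, which by its construction lets smaller differences pass, NAc over PFC had 19 higher and 1 lower in SNI and 15 and 1 in sham libraries, NAc over PAG had 18 and 3 in SNI and 18 and 2 in sham libraries, and PFC over PAG had 9 and 8 in each. A pseudocount of 0.1 gave 2 higher for NAc SNI over PFC SNI, 3 for NAc sham over PAG sham and 2 for NAc SNI over PAG SNI, and voom on the recovered reads gave 2, 3 and 3. Median-of-ratios and quantile scaling gave 2 each for NAc SNI over PAG SNI. The share of all genes at a fold of at least 2 was not computed under the alternatives. A filter of 2 RPKM, which leaves out Pcdhb6, gave 0 for NAc over PFC in SNI and in sham libraries. Without the 6 NAc libraries rich in Slc17a7, chosen after seeing the data, NAc sham over PAG sham had 2 higher, and the Pcdhb4 difference between NAc SNI and NAc sham reversed to -0.0362. Median-of-ratios scaling put the median log2 difference of all genes at 0.00 for PFC SNI over PAG SNI, against -0.10 as deposited. No paired analysis was possible because the labels do not name the mice behind a library. Region contrasts treated libraries as independent, and whether regions share mice is unknown. Depth limits Pcdhb1 in PFC, at 3 to 13 reads a library.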

Other observations

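Pcdhb8 was the beta gene of lowest log2 difference between SNI and sham in each region, at -0.16 (SE 0.10) in NAc, -0.18 (SE 0.08) in PFC and -0.16 (SE 0.07) in PAG. It averaged 1.62 ± 0.346 RPKM in NAc SNI and 1.84 ± 0.128 RPKM in NAc sham, 1.02 ± 0.183 RPKM in PFC SNI and 1.21 ± 0.0884 RPKM in PFC sham, and 1.72 ± 0.225 RPKM in PAG SNI and 1.98 ± 0.147 RPKM in PAG sham (SD, n = 6 each). The groups overlapped in each region and none of the 3 differences passed the adjusted threshold. The SD was larger in SNI than in sham libraries in all 3 regions. The pattern was picked after its values were seen, and the 3 comparisons share no libraries, though whether they share mice is not stated in the labels.

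The median coefficient of variation over the 22 genes was 7.93% in PAG SNI and 7.62% in PAG sham, where counting alone gives a median of 6.94% and 6.49% at the depth of those libraries. In PFC it was 9.81% in SNI and 10.2% in sham, with counting at 5.33% and 5.39%, and in NAc it was 6.84% in SNI and 7.45% in sham, with counting at 5.11% and 4.89%. Counting error differs with depth, and the regions were not compared in this.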
